A study of Mus musculus with 24 samples.

Results

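Across 8 groups of mouse leukaemia cells, 10 protease inhibitor genes were followed: the stefin A genes Stfa1, Stfa2, Stfa2l1, Stfa3 and BC100530, their relative Cstb, the whey acidic protein (WAP) domain genes Wfdc21, Wfdc17 and Slpi, and the serpin Serpinb1a. They were taken by symbol from a list chosen with earlier results of these data known, so counts called among them are descriptions. Each of the 10 was found among the 43629 identifiers of the count table. All 10 also passed the filter on low counts, which left 10578 genes to test. The cells are a cultured mouse model of acute myeloid leukaemia, driven by the oncogene MLL-AF9, with Cas9 added, the nuclease that cuts where a guide RNA directs it. Every group, the control included, received guides by lentivirus at an MOI of 0.3. Puromycin at 2 ug/ml was applied for 72 hours from 48 hours after transduction, and cells were harvested for RNA at day 9. There were 8 groups with 3 libraries each, 24 in all: DOT1L KO, guides G1 and G2 to MLLT10, G1 and G2 to MLLT1/ENL, G1 and G2 to MLLT6/AF17, and the non-targeting control NT. The labels name 1 group each for DOT1L KO and NT, so an effect of a single guide cannot be told apart from that of the knockout there.

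DOT1L is the methyltransferase that marks lysine 79 of histone H3, and the other targeted proteins are its known partners. Stefins, also called type 1 cystatins, are small proteins of the cytosol that block papain-like cysteine proteases such as the lysosomal cathepsins. SLPI and SERPINB1 block the serine proteases of neutrophil granules, among them elastase and cathepsin G. Mouse stefin A genes have multiplied into a cluster, and their mRNAs are known to accumulate in maturing granulocytes, which MLL-AF9 leukaemia cells are blocked from becoming.

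Library totals ranged from 2403044 to 7415397 counts. Levels are counts per 1000000 of a library (CPM) after TMM scaling, and a gene was called at an edgeR adjusted p under 0.05. Whether replicates were cultured separately is not in the labels, so p-values cover only the spread of these libraries, which may be technical. Dot1l mRNA fell in DOT1L KO libraries (log2 fold change -0.71 ± 0.13 (SE), adjusted p = 0.000189). The mRNA of the gene targeted did not pass the test in the other knockouts: Mllt10 stood at -0.76 ± 0.21 in the libraries labelled MLLT10 (adjusted p = 0.139) and Mllt6 at -0.90 in those labelled MLLT6 (adjusted p = 0.496). Mllt1 stood at 0.62 ± 0.22 in the libraries labelled MLLT1 (adjusted p = 0.148), above NT, so the mRNA does not back that label, and each direction drawn from these libraries rests on the label alone. A cut by Cas9 need not change the level of the mRNA. The 7 myeloid markers examined, among them Ptprc and Mpo, had counts in every group. Summed T cell markers reached at most 2.23 CPM in any library and summed B cell markers at most 1.24 CPM. The first library of MLLT1 G1 and the last of MLLT6 G1 had the lowest mean correlations with their groups, 0.943 and 0.950. The first NT library followed closely at 0.953. By a chi-square of counts per gene, the first MLLT10 G1 library lay further off than that of MLLT1 G1 (23.4 against 20.2). The first 2 are called the libraries that stood apart. Calls that change without both are given beside the results or in the closing section.

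Stefin A genes in the table lie side by side within 335 kb of chromosome 16 (mm10), 5 of them members and 5 others. Stfa2l1 (ENSMUSG00000059657) spans chr16:36156811-36161953 and Stfa1 (ENSMUSG00000071562) chr16:36276951-36285373, both on the plus strand. BC100530 (ENSMUSG00000071561, chr16:36359382-36367748), Stfa2 (ENSMUSG00000022902, chr16:36403992-36408457) and Stfa3 (ENSMUSG00000054905, chr16:36450537-36455392) lie on the minus strand. RefSeq promoters (GRCm38.p6) were matched for 6 members: Stfa1, Stfa2, Stfa2l1, Stfa3, Wfdc17 and Slpi. The 110 bases before the RefSeq start are shown for the 4 stefins, because these genes moved together and differ far more in their levels in NT cells than in these letters. RefSeq starts differ from the GENCODE spans given above. The Stfa1 stretch lies wholly inside the Stfa1 span and the Stfa2 stretch mostly inside the Stfa2 span. Capitals mark exact runs of at least 10 bases that all 4 share at nearly the same distance from the start.
Stfa2l1 (plus strand, chr16:36156701-36156810): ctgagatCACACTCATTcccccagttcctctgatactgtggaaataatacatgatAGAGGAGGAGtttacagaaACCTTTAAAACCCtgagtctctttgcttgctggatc
Stfa1 (plus strand, chr16:36277038-36277147): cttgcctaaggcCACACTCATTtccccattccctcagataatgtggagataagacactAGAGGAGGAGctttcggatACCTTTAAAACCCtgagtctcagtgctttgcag
Stfa2 (minus strand, chr16:36408364-36408473): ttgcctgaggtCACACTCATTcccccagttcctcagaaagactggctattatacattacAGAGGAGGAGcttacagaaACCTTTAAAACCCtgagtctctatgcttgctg
Stfa3 (minus strand, chr16:36455393-36455502): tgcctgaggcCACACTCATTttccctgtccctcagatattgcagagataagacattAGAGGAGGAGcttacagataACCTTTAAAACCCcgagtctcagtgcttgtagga

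Over 250 bases before the start, the 4 stefin promoters were 82.2% to 92.3% identical, with Stfa2 and Stfa2l1 the closest pair. Each of the 4 was 52.8% to 62.3% identical to the promoters of Wfdc17 and Slpi. The run ACCTTTAAAACCC, which starts 32 to 36 bases before the 4 starts, was found in 0.0244% of the 32817 promoters in the table. CACACTCATT was found in 0.0823% and AGAGGAGGAG in 0.817%. Core letters of the site bound by PU.1, a transcription factor of myeloid cells, are GAGGAA. They stood on either strand in 5 of the 6 matched promoters (all but Slpi), against 23.3% of all promoters. Of these 5, 4 are the alike stefin promoters, so they are not 4 unrelated promoters. Their matches stood 178 (Stfa1), 135 (Stfa3), 82 (Stfa2) and 86 and 224 (Stfa2l1) bases before the start. Only those at 82 and 86 lie at nearly the same distance. Letters searched for C/EBP (TTNNGCAA, N any base) were in 2 of the 6, Stfa1 and Slpi, against 9.57% of all promoters. Those searched for HOXA9 (TTTATNNC) were in none, against 11.2%. Letters of a TATA box (TATAAA, either strand) were in none of the 6, against 12.4% of all promoters. Only these exact letters were searched, so other forms of the box were not examined. A match is a description of letters and not evidence of binding.

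The likeness of the coding sequences bears on how far reads can be assigned to one gene. Stfa1 and BC100530 were 97.9% identical, and Stfa2 and Stfa2l1 96.4%. Stfa3 was more distant, 80.9% to 84.5% identical to the other 9 stefin A genes. Cstb, on chromosome 10, was 56.9% to 65.2% identical to the stefin A genes. Of all 50-base words in the transcripts of BC100530, 25.1% also occur in another gene, chiefly Stfa1. The share was 22.5% for Stfa1, 24.6% for Stfa2l1 and 15.9% for Stfa2, so the split of reads within each of these pairs is uncertain. No 50-base word of Stfa3, Cstb, Wfdc21, Wfdc17 or Slpi occurs in another gene, and 2.81% of those of Serpinb1a do, in Serpinb1b, Serpinb1c and a pseudogene. Exons of BC100530 overlap the antisense gene Gm15845 and those of Slpi overlap Mir7678, which hold 10 and 13 counts over all libraries. How reads on the overlaps were counted is not stated. These low counts cannot show whether reads of the members were left uncounted.

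In DOT1L KO cells 7 of the 10 inhibitors rose and 2 fell relative to NT, where 11.2% of all genes tested were called higher and 10.7% lower (21.8% in all). All 5 stefin A members, Wfdc21 and Serpinb1a were higher, Slpi and Wfdc17 were lower, and Cstb did not pass the test. Fold changes ran over a wide span, from log2 values above 10 for Stfa3 and Wfdc21 to 1.07 for Serpinb1a. The median log2 fold change of the 10 was 6.36, beside 0.01 over all genes tested.

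**Figure D1:**
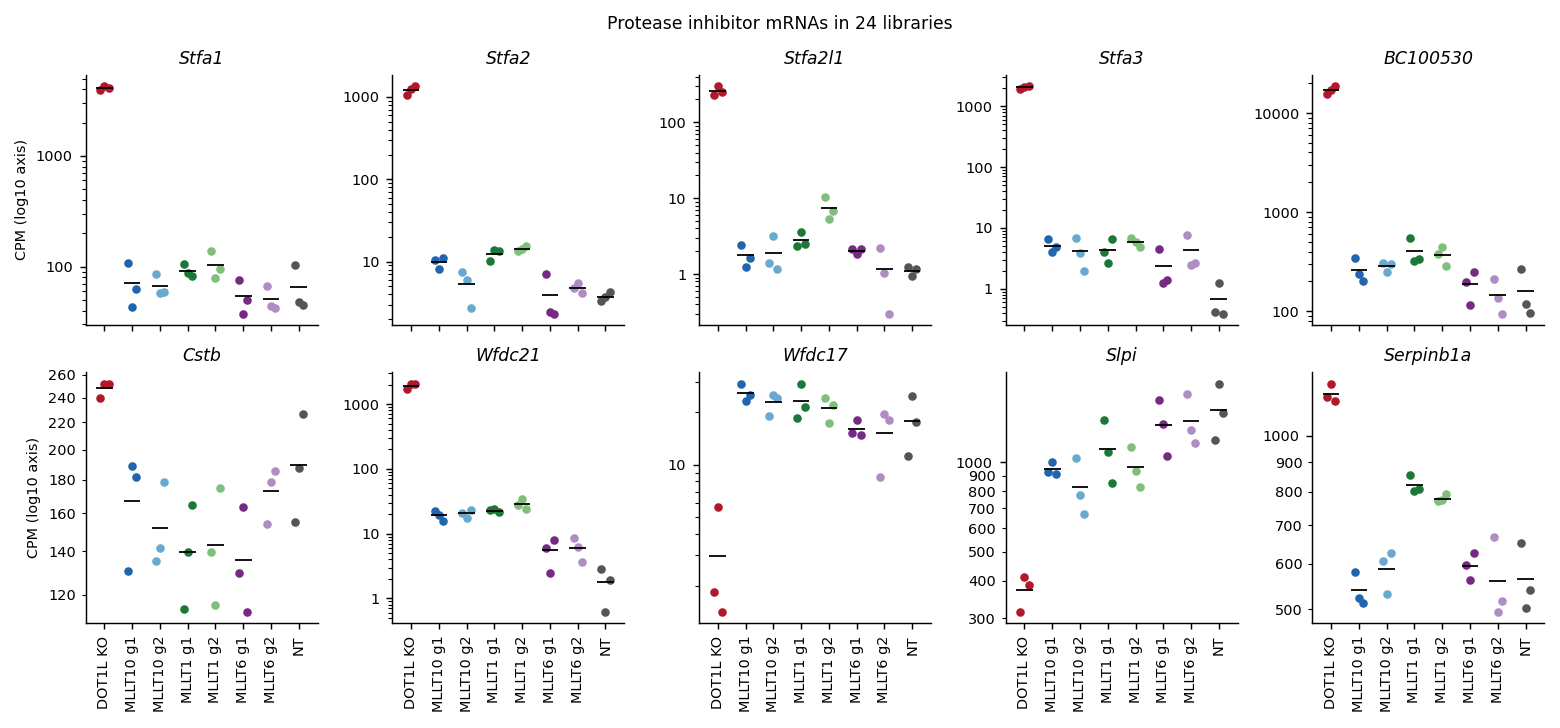
CPM of each of the 10 genes in every library (log10 axis, each panel with its own range), by group, with DOT1L KO at the left and NT at the right. Points are libraries and lines are the means of 3. The 5 stefin A genes and Wfdc21 stand far higher in DOT1L KO than in the other 7 groups, while Slpi and Wfdc17 stand lowest there.

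Stfa3, the only stefin A member with no shared 50-base word, had 1932, 2064 and 2142 CPM in the DOT1L KO libraries, against 0.412, 1.25 and 0.389 CPM in the NT libraries. The NT values rest on 1, 4 and 1 counts, so the gene was at the edge of detection there. Its log2 fold change was 11.40 ± 0.51 (adjusted p = 7.65e-14), rank 3 of 10578 genes. From the summed counts, 23028 in DOT1L KO and 6 in NT, the ratio was 2830 with an exact 95% interval of 1300 to 7711, which covers counting error only. Without the second NT library, which holds 4 of the 6 counts, the log2 fold change was 12.20.

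BC100530 was the most abundant of the 10 in DOT1L KO cells, with 15605, 16956 and 18776 CPM there, against 268, 118 and 96.8 CPM in NT. The groups were far apart, and the first NT library was the highest. Its log2 fold change was 6.73 ± 0.43 (adjusted p = 3.76e-11). Stfa1, its near-identical neighbour, had 3984, 4293 and 4091 CPM in DOT1L KO and 103, 47.5 and 45.1 CPM in NT. The first NT library again stood highest, and the log2 fold change was 5.99 ± 0.39 (adjusted p = 5.23e-11). By mean CPM, which is not corrected for gene length, BC100530 ranked 3rd and Stfa1 14th among the genes tested in DOT1L KO cells. In NT cells the same genes ranked 1270th and 3073rd.

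Stfa2 and Stfa2l1, the other pair of near-copies, started from a lower level. Stfa2 had 1050, 1245 and 1362 CPM in DOT1L KO libraries, against 3.30, 3.75 and 4.28 CPM in NT libraries (log2 fold change 8.32 ± 0.33, adjusted p = 6.99e-15). Stfa2l1 had 232, 301 and 252 CPM in DOT1L KO libraries, against 1.24, 0.938 and 1.17 CPM in NT libraries, each of which held 3 counts (log2 fold change 7.86 ± 0.39, adjusted p = 4.48e-13). Both groups of 3 were tight and far apart for each gene.

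Cstb encodes stefin B, the stefin found in most cell types. It had 240, 252 and 252 CPM in DOT1L KO and 155, 187 and 227 CPM in NT. Each DOT1L KO library lay above every NT library, yet the log2 fold change of 0.39 ± 0.19 did not pass (adjusted p = 0.163). CPM per kilobase of exon allows genes to be compared. On that scale stefin A members stood at 625 to 21661 in DOT1L KO and 1.66 to 204 in NT. Cstb stood at 411 ± 11.3 in DOT1L KO and 315 ± 59.5 in NT (SD, n = 3 each).

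Wfdc21 (ENSMUSG00000051748, chr11:83746940-83752642), a small secreted protein with a WAP domain, is a neighbour of Wfdc17. It had 1706, 2059 and 2012 CPM in DOT1L KO and 2.89, 0.626 and 1.94 CPM in NT. NT libraries held 7, 2 and 5 counts. The log2 fold change was 10.10 ± 0.38 (adjusted p = 6.99e-15), rank 8 of all genes, and the ratio of summed counts was 1141 with an exact 95% interval of 680 to 2088.

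Wfdc17 (ENSMUSG00000069792, chr11:83703991-83706268), a WAP domain gene known from activated mouse microglia and macrophages, lies 40.7 kb before Wfdc21 on the same strand and moved the other way. It had 1.86, 5.69 and 1.43 CPM in DOT1L KO, against 11.1, 24.7 and 17.5 CPM in NT. The groups did not overlap and the second library was the highest in each. The log2 fold change was -2.68 ± 0.41 (adjusted p = 3.38e-05), and -3.47 without the second DOT1L KO library. The 1 annotated gene between the pair, Wfdc18, held 24 counts over all 24 libraries.

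Slpi (ENSMUSG00000017002, chr2:164354070-164389095), a secreted inhibitor of elastase and cathepsin G, was the most abundant of the 10 in NT cells, at 1267 ± 273 CPM per kilobase. By mean CPM it ranked 63rd among the genes tested. It had 315, 413 and 387 CPM in DOT1L KO and 1190, 1832 and 1464 CPM in NT. All DOT1L KO libraries lay well below all NT libraries (log2 fold change -2.01 ± 0.22, adjusted p = 2.57e-07). Serpinb1a (ENSMUSG00000044734, chr13:32842092-32851185), the mouse counterpart of human SERPINB1, works inside the cell on the same granule proteases. It had 1167, 1232 and 1148 CPM in DOT1L KO, against 652, 503 and 539 CPM in NT, with no overlap (log2 fold change 1.07 ± 0.13, adjusted p = 1.87e-06).

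**Figure D2:**
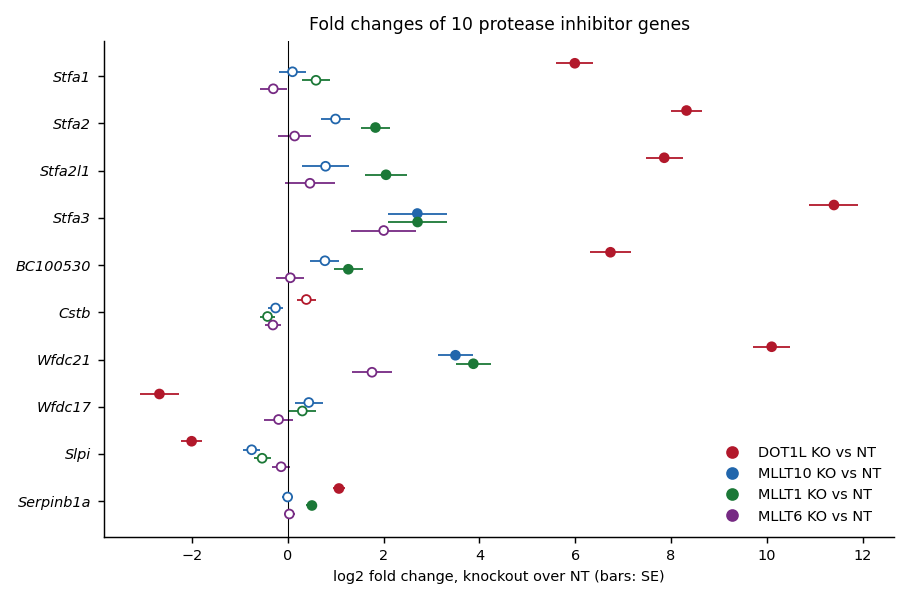
Log2 fold changes of the 10 genes in each knockout over NT, with bars of 1 SE. Filled points passed an edgeR adjusted p under 0.05 and open points did not. DOT1L KO values run from -2.68 for Wfdc17 to 11.40 for Stfa3, and Wfdc21 and Stfa3 lead in MLLT10 and MLLT1.

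Not all RNA of the cluster grew in the same proportion. The 10 stefin A genes took 2.45% to 2.87% of all counts in DOT1L KO libraries and 0.0330% to 0.0670% in NT libraries. Summed to 1 feature, they rose by 6.14 ± 0.32 on the log2 scale (adjusted p = 1.71e-12). Within that sum, BC100530 made up 54.8% to 56.9% in DOT1L KO and 31.4% to 39.9% in NT. Stfa3 made up 6.49% to 6.92% in DOT1L KO and 0.0613% to 0.383% in NT, so it passed from a trace to the fourth largest part. Gm5483 moved the other way, at 16.3% to 17.9% in DOT1L KO and 36.5% to 44.6% in NT, although its own CPM rose as well. Stfa1 kept a similar share, 12.4% to 14.3% in DOT1L KO and 14.6% to 15.3% in NT. These shares are given as descriptions, and those of near-copies depend on how shared reads were assigned.

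**Figure D3:**
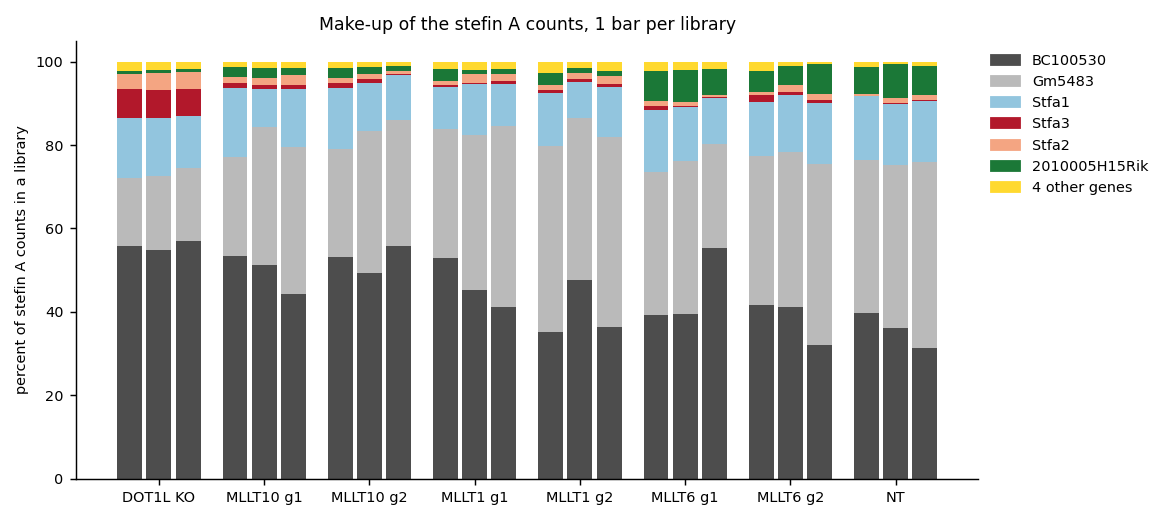
Share of the summed stefin A counts held by each gene, 1 stacked bar per library, in percent of that library's stefin A counts, with DOT1L KO at the left and NT at the right. Stfa3 and Stfa2 fill their widest bands in the DOT1L KO bars, where they hold 6.49% to 6.92% and 3.76% to 4.12%, and 2010005H15Rik is widest in MLLT6 and NT.

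The 5 other stefin A genes rose in DOT1L KO as well, so that each of the 10 in the table passed. There, 11.2% of all genes tested were called higher. BC117090 rose by 7.34 ± 0.54, Gm5416 by 6.18 ± 0.47, Gm5483 by 4.97 ± 0.26 and 2010005H15Rik by 2.83 ± 0.44 on the log2 scale. Of the 50-base words of BC117090, 33.7% also occur in another gene, chiefly BC100530. For 2010005H15Rik the share was 20.4%, in Gm5483. In DOT1L KO, BC117090 averaged 145 CPM beside 17112 for BC100530, and 2010005H15Rik 214 CPM beside 5309 for Gm5483. How far misassigned reads of these near-copies make up the 2 rises was not tested. Csta1 had 21.9, 27.7 and 27.8 CPM in DOT1L KO, against 0.824, 0 and 0.389 CPM in NT, whose 3 libraries hold 3 counts in all. It passed the filter on low counts only through the DOT1L KO libraries, so its rise there was fixed in advance. Ccdc58, the next gene beyond Csta1, named here for its position, did not share the rise. It had 111, 134 and 134 CPM in DOT1L KO and 241, 227 and 280 CPM in NT, and fell by 0.98 ± 0.24 on the log2 scale (adjusted p = 0.00424).

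**Figure D4:**
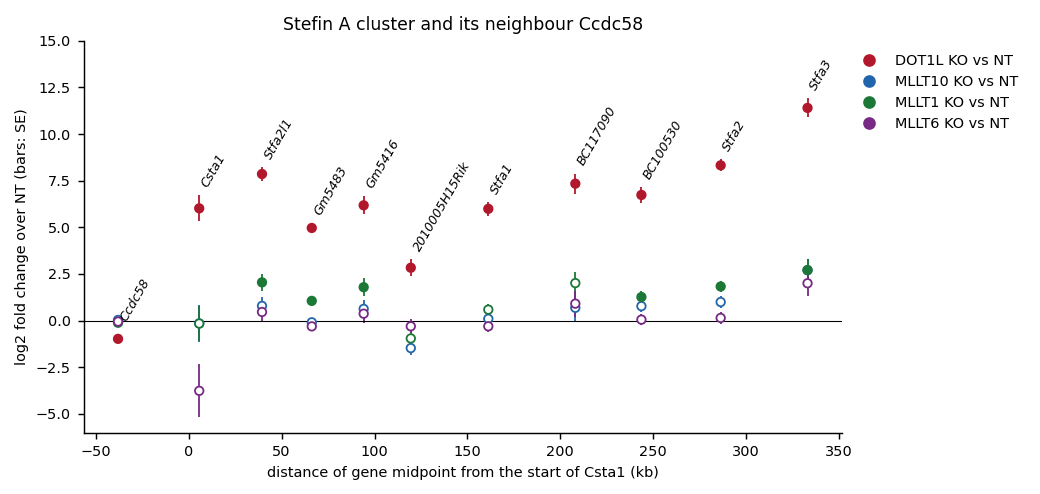
Log2 fold change over NT (y axis, bars of 1 SE) against the distance of each gene's midpoint from the start of Csta1 (x axis, kb), for the 10 stefin A genes and the neighbour Ccdc58 at the left. Filled points passed an edgeR adjusted p under 0.05. Every stefin A gene is raised in DOT1L KO, from 2.83 for 2010005H15Rik to 11.40 for Stfa3 at the far right, and Ccdc58 lies below 0. The lowest MLLT6 point is Csta1, which had no count in any MLLT6 library.

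In MLLT10 libraries Wfdc21 and Stfa3 rose relative to NT, 2 of the 10 members, where 0.473% of all genes were called (0.236% higher). Wfdc21 had 22.2, 19.7 and 15.6 CPM with G1 and 21.1, 17.3 and 23 CPM with G2, against 2.89, 0.626 and 1.94 CPM in NT. All 6 MLLT10 libraries lay above all 3 NT libraries, and the log2 fold change was 3.50 ± 0.37 (adjusted p = 2.08e-05). Each guide passed on its own, G1 at 3.47 ± 0.39 (adjusted p = 7.59e-05) and G2 at 3.53 ± 0.39 (adjusted p = 5.39e-05), where 0.17% and 0.303% of all genes were called (0.113% and 0.208% higher).

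Stfa3 had 6.49, 4.07 and 4.86 CPM with MLLT10 G1 and 6.93, 3.86 and 1.95 CPM with G2, against 0.412, 1.25 and 0.389 CPM in NT. Again no MLLT10 library reached down to the NT libraries, but both groups hold few counts and the call was narrow (log2 fold change 2.70 ± 0.61, adjusted p = 0.0455). It was lost in a fit of these groups alone (adjusted p = 0.116) and when any 1 of 15 libraries was left out, at 0.051 to 0.329. Among those were all 3 NT libraries, and the log2 fold change was 3.52 without the second of them. Slpi had 930, 1003 and 913 CPM with G1 and 1034, 778 and 668 CPM with G2, all below the 1190, 1832 and 1464 CPM of NT, and just missed the threshold (-0.76 ± 0.18, adjusted p = 0.0568). The other 7 members had adjusted p-values of 0.22 or more. The stefin A sum did not pass either (0.29 ± 0.23, adjusted p = 0.732), and its 6 libraries lay inside the NT range of 309 to 672 CPM.

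In libraries labelled MLLT1, 6 of the 10 members rose and none fell, where 2.58% of all genes were called (0.974% higher). Wfdc21, Stfa3, Stfa2l1, Stfa2, BC100530 and Serpinb1a were higher than in NT. Wfdc21 was again the strongest, with 23.2, 23.6 and 21.3 CPM with G1 and 28, 34.4 and 24 CPM with G2, against 2.89, 0.626 and 1.94 CPM in NT (log2 fold change 3.87 ± 0.36, adjusted p = 5.24e-07). Stfa2 had 10.1, 13.9 and 13.6 CPM with G1 and 13.5, 14.1 and 15.6 CPM with G2, against 3.30, 3.75 and 4.28 CPM in NT (1.83 ± 0.30, adjusted p = 0.00115). For both genes all 6 knockout libraries lay above the NT libraries.

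Stfa3 had 4.04, 2.64 and 6.47 CPM with MLLT1 G1 and 6.92, 5.93 and 4.96 CPM with G2, against at most 1.25 CPM in NT (2.71 ± 0.62, adjusted p = 0.0168). Stfa2l1 had 2.35, 3.61 and 2.46 CPM with G1 and 10.5, 5.40 and 6.69 CPM with G2, against at most 1.24 CPM in NT (2.05 ± 0.44, adjusted p = 0.011). The guides differed most here, each G2 library lying above each G1 library. BC100530 had 546, 323 and 337 CPM with G1 and 379, 443 and 287 CPM with G2, against 268, 118 and 96.8 CPM in NT (1.26 ± 0.31, adjusted p = 0.0264). Serpinb1a had 856, 802 and 809 CPM with G1 and 771, 773 and 791 CPM with G2, against 652, 503 and 539 CPM in NT (0.50 ± 0.12, adjusted p = 0.0176). No MLLT1 library of these genes overlapped the NT range.

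These smaller calls lean on the control. Without the second or the last NT library, 2 of the 6, Wfdc21 and Stfa2, stayed called. Without the second, the adjusted p was 0.117 for Stfa2l1, 0.0583 for Stfa3, 0.219 for BC100530 and 0.182 for Serpinb1a, and without the last it was 0.0714, 0.137, 0.23 and 0.133 in the same order of genes. Stfa3 was also lost without the first NT library (0.0508), and BC100530 without the first MLLT1 G1 library (0.052) or the second G2 library (0.0645). In a fit of these groups alone, Stfa2l1 (0.0671), BC100530 (0.101) and Serpinb1a (0.115) did not pass, nor did Serpinb1a with no filter on low counts (0.0766). Stfa1, whose first libraries are high in nearly every group, did not pass (0.59 ± 0.29, adjusted p = 0.333), nor did Cstb at -0.42 ± 0.16 (adjusted p = 0.194) or Slpi at -0.54 ± 0.18 (adjusted p = 0.128). The stefin A sum was 1.03 ± 0.24 higher on the log2 scale (adjusted p = 0.0171), with 0.18 and 0.173 without the second or the last NT library. Of the other stefin A genes, Gm5483 rose by 1.06 ± 0.20 (adjusted p = 0.00442) and Gm5416 by 1.79 ± 0.47 (adjusted p = 0.0394).

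Tested guide by guide, MLLT1 G1 called Wfdc21, Stfa2 and Serpinb1a, and G2 called Wfdc21, Stfa2, Stfa2l1 and Stfa3, where 1.25% and 1.22% of all genes were called (0.586% and 0.492% higher). Serpinb1a with G1 (adjusted p = 0.0423) was lost when any 1 of 13 libraries was left out, at 0.0505 to 0.257, and without both libraries that stood apart (0.0985). Stfa3 with G2 (adjusted p = 0.0206) was lost without any 1 NT library or the first or second G2 library, at 0.0526 to 0.125. Stfa2 with G1 (adjusted p = 0.00734) was lost without the second NT library (0.062). Replicate numbers deviated together between MLLT1 G2 and NT, and with the number as a block BC100530 at 1.30 (adjusted p = 0.0198) and Serpinb1a at 0.47 (adjusted p = 0.0414) also passed for G2. The guides of a gene were compared directly for each of MLLT10, MLLT1 and MLLT6, where 0% of all genes were called by edgeR. None of the 30 member differences passed by edgeR or by DESeq2, with 2 at an unadjusted p under 0.05. One of these was Stfa2l1, lower with MLLT1 G1 than G2 by -1.30 ± 0.34. The other was Stfa2, higher with MLLT10 G1 than G2 by 0.75 ± 0.28.

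In libraries labelled MLLT6 none of the 10 members passed, and none of the 10578 genes did (0% called). By DESeq2 the member count was also 0, and 2 members, Wfdc21 and Stfa3, had an unadjusted p under 0.05. Wfdc21 had 6.01, 2.45 and 8.06 CPM with G1 and 8.46, 6.24 and 3.60 CPM with G2, against 2.89, 0.626 and 1.94 CPM in NT (log2 difference 1.76 ± 0.41, adjusted p = 0.545). Stfa3 had 4.59, 1.23 and 1.40 CPM with G1 and 7.73, 2.43 and 2.70 CPM with G2, against 0.412, 1.25 and 0.389 CPM in NT (2.00 ± 0.68, adjusted p = 0.699). For each gene 5 of the 6 libraries lay above NT. With no filter on low counts both passed, at adjusted p = 0.000254 and 0.0261. The share of all genes called in that fit was not worked out, so these passes have no background to be read against. The other 8 members differed from NT by -0.31 to 0.46 on the log2 scale.

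All comparisons with NT share the same 3 control libraries, so knockouts were also compared with each other. Each of the 10 members differed between DOT1L KO and every other knockout. Relative to DOT1L KO, 8 were lower and 2, Slpi and Wfdc17, were higher in each of MLLT10, MLLT1 and MLLT6, where 23.5%, 19.6% and 29.3% of all genes were called, lower in 12.6%, 11.1% and 15.3% and higher in 10.9%, 8.49% and 14%. Cstb is among the 8. It had 114 to 174 CPM in MLLT1 libraries and 240 to 252 CPM in DOT1L KO, a log2 difference of -0.81 ± 0.16 (adjusted p = 0.000636), with -0.64 ± 0.16 for MLLT10 and -0.70 ± 0.16 for MLLT6. Among the 5 stefin A members the smallest differences were for Stfa1, at -5.40 ± 0.28 for MLLT1 over DOT1L KO.

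Among the other knockouts, the order of Wfdc21 was MLLT1, MLLT10 and MLLT6, with group ranges of 21.3 to 34.4, 15.6 to 23 and 2.45 to 8.46 CPM. The first step did not pass (MLLT10 over MLLT1 -0.37 ± 0.18, adjusted p = 0.396). The second did, with MLLT10 over MLLT6 at 1.74 ± 0.21 (adjusted p = 0.00011), the only member to pass in that comparison by edgeR with its filter, where 0.766% of all genes were called (0.416% higher). By the DESeq2 test Stfa2 at 0.87 (adjusted p = 0.0206) and Slpi at -0.61 (adjusted p = 0.00974) passed as well. With no filter on low counts, Stfa2 (adjusted p = 0.00337), BC100530 (1.99e-05) and Slpi (0.00106) did, and with the replicate block Slpi did (0.0207). Between MLLT10 and MLLT1, 3 members were lower in MLLT10, where 2.68% of all genes were called (1.18% lower): Stfa2 by -0.83 ± 0.19 (adjusted p = 0.0152), Stfa2l1 by -1.26 ± 0.27 (adjusted p = 0.00722) and Serpinb1a by -0.51 ± 0.09 (adjusted p = 0.00185). Stfa2 was lost without the second MLLT10 G1 library (adjusted p = 0.058) and Stfa2l1 without the second MLLT1 G1 library (adjusted p = 0.0638). Serpinb1a stood at 513 to 626 CPM in MLLT10 libraries, against 771 to 856 CPM in MLLT1 libraries, with no overlap. Stfa3 gave -0.00 ± 0.32 in the same comparison, an interval too wide to call the knockouts alike.

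Between MLLT1 and MLLT6, 6 members were higher in MLLT1, where 4.46% of all genes were called (1.78% higher). They were Wfdc21 (2.12 ± 0.21, adjusted p = 7.7e-07), Stfa2 (1.69 ± 0.22, adjusted p = 2.99e-05), Stfa2l1 (1.59 ± 0.31, adjusted p = 0.00253), BC100530 (1.21 ± 0.24, adjusted p = 0.00339), Stfa1 (0.89 ± 0.23, adjusted p = 0.0259) and Serpinb1a (0.47 ± 0.09, adjusted p = 0.00307). Stfa1 was lost without the first MLLT1 G2 library, the second or last MLLT6 G1 library or the second or last MLLT6 G2 library, at 0.0626 to 0.0804, and without both libraries that stood apart (0.0812). The stefin A sum differed as well, by 1.17 ± 0.19 for MLLT1 over MLLT6 (adjusted p = 0.000396) and by -0.74 ± 0.18 for MLLT10 over MLLT1 (adjusted p = 0.0264).

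Genes of the proteases that such inhibitors act on gave falls as well as rises. Of 7 cysteine cathepsin genes tested, from a list of 11 with legumain, none rose in DOT1L KO and 3 fell. Over all genes tested there, 11.2% were called higher and 10.7% lower. Ctsc, which activates granule serine proteases, fell by 0.83 ± 0.19, Ctsl by 0.97 ± 0.23 and Ctsw by 2.22 ± 0.75 on the log2 scale. Ctsw was near the floor, with 0.355 to 0.743 CPM in DOT1L KO and 1.25 to 3.50 CPM in NT. The list's median was -0.88, beside 0.01 over all genes tested. Ctsb and Ctsz, the lysosomal cathepsins B and Z, stood at 0.21 ± 0.14 and 0.14 ± 0.15 and did not pass. None of the 7 passed in MLLT10, MLLT1 or MLLT6, where 0.473%, 2.58% and 0% of all genes were called.

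Granule serine proteases, listed as 9 genes, split. Of 5 tested in DOT1L KO, whose median was -0.47, Elane (neutrophil elastase) and Prtn3 (proteinase 3) rose by 1.08 ± 0.20 and 1.13 ± 0.17 on the log2 scale, while Ctsg (cathepsin G) fell by 1.11 ± 0.17 and Mcpt8, a protease of basophils, by 1.59 ± 0.33. In MLLT1, Prtn3 fell by 0.58 ± 0.15 (adjusted p = 0.0329) and Ctsg by 0.83 ± 0.14 (adjusted p = 0.00187), where Serpinb1a rose. Elane averaged 2001 ± 89.4 CPM in DOT1L KO and 943 ± 175 CPM in NT, while Ctsg averaged 2350 ± 422 CPM in DOT1L KO and 5059 ± 216 CPM in NT (SD, n = 3 each). Neither list had a call in MLLT6, where 0% of all genes were called. Over all genes tested, 11.2% were called higher and 10.7% lower in DOT1L KO, and 2.58% in either direction in MLLT1.

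Calls among other inhibitors went in both directions. Of 17 other clade B serpins, relatives of Serpinb1a, 4 were tested, with a median of 1.13 in DOT1L KO, and 2 rose. Over all genes tested there, 11.2% were called higher. Serpinb6a rose by 1.29 ± 0.33 on the log2 scale. Serpinb10 (adjusted p = 0.000129) had 9.95 to 14.4 CPM in DOT1L KO, against at most 0.412 CPM in NT. It passed the filter on low counts only through the DOT1L KO libraries, so its rise there was fixed in advance. Serpinb6a also rose in MLLT1 (1.13 ± 0.30, adjusted p = 0.0408). Of 9 other serpins and secreted inhibitors tested, none rose and 2 fell in DOT1L KO, with a median of -0.52. The share of all genes called lower there was 10.7%. Serpina3g fell by 2.05 ± 0.47 on the log2 scale. The single other WAP domain gene tested, Wfdc12, fell by 3.39 ± 0.67 in DOT1L KO and by 1.80 ± 0.46 in MLLT1, the direction of Slpi and not of Wfdc21. Of the type 2 cystatins, Cst7, an inhibitor of cathepsins in immune cells, stood at -0.42 ± 0.18 in DOT1L KO (adjusted p = 0.102) and fell by 0.61 ± 0.15 in MLLT1 (adjusted p = 0.0273), and Cst3 passed in no comparison with NT.

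Genes of neutrophil granules and surfaces rose in the same knockouts as Wfdc21. Of 15 listed, 14 were tested: 14 rose in DOT1L KO, 3 in MLLT10, 9 in MLLT1 and 0 in MLLT6. Over all genes tested, 11.2%, 0.236%, 0.974% and 0% were called higher in the same order. Median log2 fold changes of the 14 were 6.77, 1.32, 2.27 and 0.12. Some of the 14 passed the filter on low counts only through the DOT1L KO libraries. Retnlg, for example, had 58.7 to 63.6 CPM there and at most 1.20 CPM in any other library. For such genes a rise in DOT1L KO was fixed in advance, so the 14 of 14 is a description. Ltf (lactoferrin) averaged 1732 ± 87.3 CPM in DOT1L KO and 0.717 ± 0.290 CPM in NT. Over the 8 group means of log2(CPM + 1), each centred on its own mean, the 3 genes nearest to Wfdc21 were S100a8, S100a9 and Ltf, at root mean square differences of 0.41 to 0.49. Nearest to Stfa3 were Cybb (a subunit of the phagocyte NADPH oxidase), Chil3 and Fcnb, at 0.45 to 0.54. Stfa1 was nearest to Retnlg, Ifitm6 and Lyz2, and BC100530 to Asprv1, Lcn2 and Retnlg.

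Slpi, Wfdc17, Serpinb1a and Cstb had other nearest genes. Slpi was closest to Zfpm1, H2-Oa and Pbx3, at 0.09 to 0.13, and Wfdc17 to Col4a1, Meis1 and Hnf4a, at 0.22 to 0.31. Serpinb1a was closest to Lin28a, Zfyve27 and Dock5, and Cstb to Prkd2, Gmfg and Cnot1. These are distances over 8 means, in which DOT1L KO weighs most, and say nothing of shared control.

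Markers of other cells also differed between the groups. Summed over 6 erythroid markers, libraries held 1.49 to 3.03 CPM in DOT1L KO, 29.3 to 69.6 in MLLT10, 10.2 to 21.2 in MLLT1, 71.0 to 125 in MLLT6 and 65.5 to 92.9 in NT, nearly all of it Hbb-bt. The 5 stroma and epithelium markers summed to 178 to 208 CPM in DOT1L KO and 347 to 456 CPM in NT, mostly Pecam1, which myeloid cells also express, and Col1a1 alone was higher in DOT1L KO, at 17.1 ± 2.71 CPM against 0.442 ± 0.471 CPM in NT. Their part in the results was not tested. In bulk RNA, more mRNA per cell and more cells that express a gene cannot be told apart. Replicate 1 was the highest of its group for Stfa1 and for the stefin A sum in 7 of 8 groups, and the lowest for Cstb in 6 of 8.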

How the data were processed

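Gene counts of 24 libraries were deposited by the authors as 1 table of raw counts, without normalization. Reads had been processed with bcl2fastq, HISAT2, HTSeq and DESeq2 on mm10, per the submitters' processing notes; versions, annotation and strand setting are not stated in any source used here, and sense and antisense reads cannot be told apart. Symbols and positions came from GENCODE M21 (GRCm38, which mm10 names): 42462 of 43629 identifiers matched. Promoters came from RefSeq (GRCm38.p6).

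Counts were tested with edgeR 4.0.16 (R 4.3.3): TMM scaling, edgeR's filter on low counts, 1 quasi-likelihood fit of all 8 groups, and Benjamini-Hochberg adjustment over 10578 genes at 0.05. There were 19 comparisons; for genes with 2 guides the mean of both was compared. Each SE was worked back from the fold change and edgeR's F statistic and is approximate. In a separate fit, the counts of the 10 stefin A genes were replaced by their sum, which was tested as 1 feature. Transcript words of 50 bases and coding sequences (Biopython 1.88) gauged shared reads. Fits were tested on simulated data.

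The members and gene lists were chosen with earlier results of these data known. All members were named. Of each other list, the up to 4 tested genes with the smallest adjusted p in DOT1L KO, and up to 2 in each other knockout, could be named, as could the 3 nearest genes of each member. Positional neighbours (Ccdc58, Wfdc18), Ctsb, Ctsz and Col1a1 were added after their values were seen. Pairing of replicate numbers with NT (each of 3 correlations of deviations over 0.1) held for MLLT10 G1, MLLT1 G2 and MLLT6 G2. Alternatives were DESeq2 1.42.0 size factors, the DESeq2 test, no filter, a replicate block, a fit of only the groups compared, and each library left out in turn. A fit without both aberrant libraries was added after seeing the data. 1 gene of the list of other serpins and secreted inhibitors is not reported here.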

Additional observations from a re-analysis of the deposited data

How the results depend on the processing

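No result that passed in the main analysis or under an alternative changed sign between them, while some differences near 0 that never passed did, such as Stfa1 in MLLT10 (-0.13 to 0.58). In DOT1L KO the member count stayed at 9 under every alternative, and leaving out any library gave 9. The MLLT10 count of 2 was 5 with no filter on low counts, 1 with the compared groups only and 1 to 3 without single libraries. The MLLT1 count of 6 was 3 with the compared groups only and 2 to 6 without single libraries. The MLLT6 count of 0 was 2 with no filter. Single guides gave 9 calls of 60, and 6 to 12 without single libraries. The count was 21 with no filter, 17 with the DESeq2 test and 14 with the replicate block. The share of all genes called was worked out for the main fit only. Member counts under the alternatives therefore have no background to be read against. Adjusted p-values could be far lower with no filter at nearly the same fold change. For BC100530 with MLLT1 G1, the edgeR adjusted p of 0.0558 became 4.77e-09, at log2 values of 1.32 and 1.33. Knockouts against each other gave 40 of 60, and 39 to 42 without single libraries. The stefin A sum passed in 2 main comparisons, and in 1 without the second or the last NT library. The causes were not tested.

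With the replicate block, which the numbers do not support for DOT1L KO, MLLT10 G2, MLLT1 G1 or MLLT6 G1, 2 members passed that had missed the threshold for a knockout against NT: Slpi in MLLT10 at -0.77 (adjusted p = 0.0143), and in MLLT1 Stfa1 at 0.65 (adjusted p = 0.0426) and Slpi at -0.56 (adjusted p = 0.0431). Slpi in MLLT10 also passed with the DESeq2 test (adjusted p = 0.0118) and with no filter (adjusted p = 0.000804). It passed as well with the 2 libraries that stood apart left out (adjusted p = 0.0239). Leaving these out also called Slpi in MLLT1 (0.0424) and MLLT10 G2 (0.0427) against NT, and in MLLT10 (0.0163) and MLLT1 (0.0331) against MLLT6. Depth limits Stfa3, Stfa2l1 and Wfdc21 in NT, where 3 libraries hold 6, 9 and 14 counts.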
